A study of Mus musculus with 6 samples.

Results

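The cyclophilins and FKBPs are families of peptidyl-prolyl isomerases, enzymes that turn the bond before a proline residue and so help other proteins to fold or switch shape. Here 30 genes of these families other than Ppif were followed in hearts that lack Ppif. The members were the probe sets annotated with exactly 1 gene symbol that was one of those 30. The rule found 37 probe sets for 28 genes, 15 cyclophilins and 13 FKBPs, among 19938 genes measured in this way. Fkbp6 and Fkbp10 were not analysed here.

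Total RNA of whole hearts was hybridised to Affymetrix Gene 1.0 ST arrays, 1 array per heart, from 3 Ppif-/- and 3 WT mice, all 8 weeks old. The Ppif-/- mice carry a global knockout, per the labels, and their line was moved to C57BL/6 by backcrossing from Sv129. The WT mice are labelled C57BL/6, and no treatment is given for either genotype. Whether the WT mice were littermates is not given in the sources used here, so the knockout and any remaining Sv129 sequence cannot be told apart. Values are log2 expression by RMA, which puts arrays on a common distribution and reduces the probes of a set to a single value, and every difference below is Ppif-/- minus WT on that scale. Because probe sets differ in how brightly they read, no level of one gene is set against that of another. With 3 hearts a genotype, precision is limited by the number of arrays.

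Ppif encodes cyclophilin D, which lies in the mitochondrial matrix and helps the permeability transition pore to open, an action that cyclosporin A blocks. Most of its relatives work elsewhere. Ppia acts in the cytosol, Ppib and Ppic in the secretory pathway, and a large group that includes Ppil1, Ppwd1 and Ppih is found with the spliceosome. In heart muscle the FKBPs are best known for Fkbp1a and Fkbp1b, which bind the ryanodine receptor, the calcium release channel of the sarcoplasmic reticulum. Fkbp4 and Fkbp5 sit with Hsp90 on steroid hormone receptors, and Fkbp8 is anchored in the outer mitochondrial membrane. Despite its symbol, Ppid does not encode cyclophilin D but a cytosolic cochaperone of Hsp90.

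The sequences just before the start sites of 5 members are shown because their transcripts carry the results below. Ppwd1, Ppil1, Ppib and Fkbp8 were 4 of the 5 members with an unadjusted p under 0.05 between the genotypes, and Fkbp5 varied most from heart to heart. Each line gives the 250 bases before the annotated start, 5′ to 3′ on the strand of the gene, from RefSeq on GRCm38.p6. Capitals mark matches, on either strand, to any of 7 short motifs.
Ppwd1: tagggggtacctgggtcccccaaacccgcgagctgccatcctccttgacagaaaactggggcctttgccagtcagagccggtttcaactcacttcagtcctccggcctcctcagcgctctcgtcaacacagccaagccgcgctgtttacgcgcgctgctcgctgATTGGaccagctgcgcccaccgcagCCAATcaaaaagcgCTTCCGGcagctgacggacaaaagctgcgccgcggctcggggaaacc
Ppil1: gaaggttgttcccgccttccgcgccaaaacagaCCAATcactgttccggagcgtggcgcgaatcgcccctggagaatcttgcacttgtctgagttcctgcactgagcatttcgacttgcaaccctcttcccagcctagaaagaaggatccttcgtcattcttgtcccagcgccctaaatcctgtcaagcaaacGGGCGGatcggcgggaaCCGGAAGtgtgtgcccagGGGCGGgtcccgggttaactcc
Ppib: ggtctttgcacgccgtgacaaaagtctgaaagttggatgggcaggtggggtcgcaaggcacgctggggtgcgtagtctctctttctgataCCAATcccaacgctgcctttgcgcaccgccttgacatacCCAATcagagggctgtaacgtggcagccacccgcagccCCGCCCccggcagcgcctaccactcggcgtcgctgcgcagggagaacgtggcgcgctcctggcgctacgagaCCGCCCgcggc
Fkbp8: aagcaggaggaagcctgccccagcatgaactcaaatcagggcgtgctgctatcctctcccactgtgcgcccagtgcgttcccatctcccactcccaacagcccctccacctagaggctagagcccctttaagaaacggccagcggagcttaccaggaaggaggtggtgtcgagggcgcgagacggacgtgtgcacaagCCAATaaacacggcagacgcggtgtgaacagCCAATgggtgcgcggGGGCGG
Fkbp5: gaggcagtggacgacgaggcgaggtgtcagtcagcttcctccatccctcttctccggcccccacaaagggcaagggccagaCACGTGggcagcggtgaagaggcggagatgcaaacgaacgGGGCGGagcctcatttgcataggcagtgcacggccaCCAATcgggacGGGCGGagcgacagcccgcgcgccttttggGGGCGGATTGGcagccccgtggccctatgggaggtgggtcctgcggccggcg
The Ppwd1 window lies at chr13:104228845-104229094 on the minus strand and the Ppil1 window at chr17:29263972-29264221 on the minus strand. Ppib was read at chr9:66059919-66060168 on the plus strand, Fkbp8 at chr8:70527493-70527742 on the plus strand and Fkbp5 at chr17:28486150-28486399 on the minus strand. The motifs searched were the GC box (GGGCGG), the CCAAT box (CCAAT), an ETS core (CCGGAAG), the E-box (CACGTG), the cyclic AMP element (TGACGTCA), the full palindromic glucocorticoid element and the ER stress element, the last of which contains a CCAAT box. All 5 windows held a CCAAT box, which 33.8% of all 32851 promoter windows of this length also held. Ppwd1 and Ppil1 each had 1 ETS core, found in 6.91% of all windows. The Fkbp5 window had 3 GC boxes, 1 of them directly joined to a CCAAT box, and 1 E-box, which 6.02% of all windows held. Over the 28 windows listed for 24 of the member genes, 64.3% had a GC box, against 32.7% of all windows, 46.4% a CCAAT box, 21.4% an ETS core and 7.14% an E-box. None of the 28 had a cyclic AMP, glucocorticoid or ER stress element, and these were rare in all windows too, at 1.55%, 0.00913% and 0.113%. Such a match describes letters and is not evidence that a factor binds there.

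The knockout was visible on the arrays. Ppif read 6.00, 6.25 and 6.44 in Ppif-/- hearts 1, 2 and 3 and 11.44, 11.28 and 11.49 in WT hearts 1, 2 and 3. The difference of -5.17 ± 0.12 (SE) passed in limma (adjusted p = 2.97e-06), and which part of the transcript the probe set reads was not given. Cardiomyocyte markers were bright in every heart, with a mean over 13 genes of 12.75 to 12.78 in Ppif-/- and 12.73 to 12.79 in WT hearts. Over all probe sets with a symbol, the correlation between arrays was 0.995 to 0.997 for hearts of the same genotype and 0.991 to 0.995 across genotypes.

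WT heart 2 stood apart from the other hearts in these families. It held the highest or the lowest of the 6 values for 22 of the 28 members (78.6%), lowest for 15 and highest for 7, while the same was true of 45.9% of all genes. Ppif-/- heart 1 came next with 14 members, 12 of them at the top (35.1% of all genes had it as an extreme), and WT heart 1 was an extreme for 1 (25.9% of all genes). Results are therefore also given without WT heart 2.

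**Figure D1:**
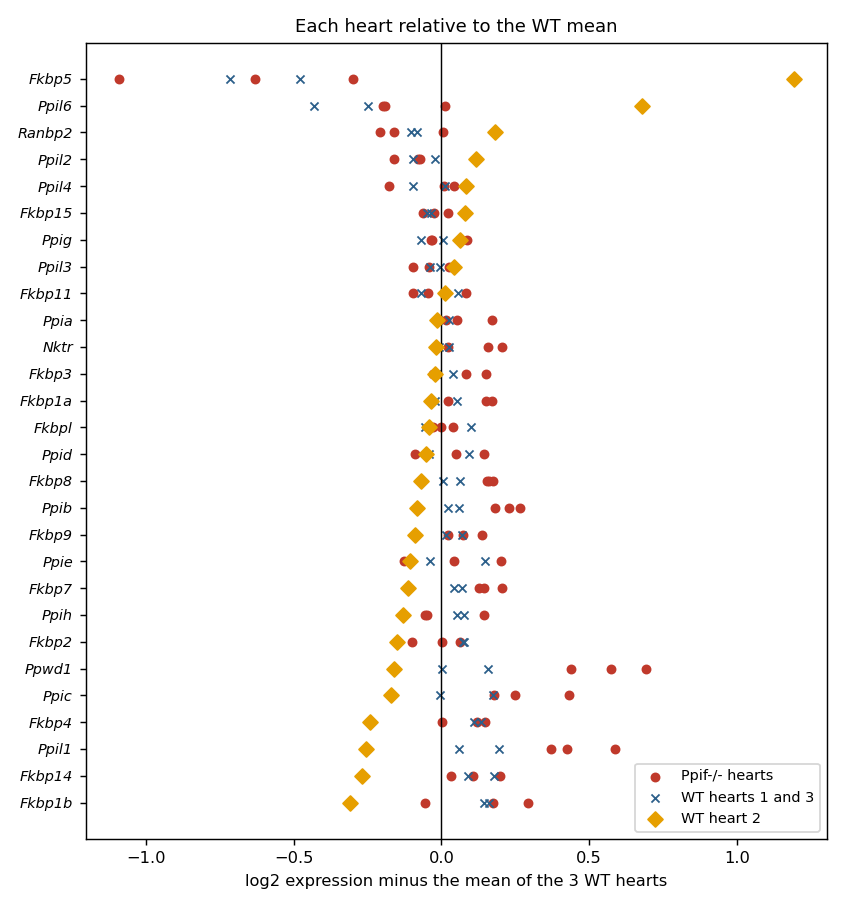
Each row is a member gene and each point a heart, placed by its log2 expression minus the mean of the 3 WT hearts. WT heart 2 (diamonds) lies at an edge of the row for 22 of 28 genes, farthest to the right for Fkbp5 and farthest to the left for Fkbp1b.

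No member passed the threshold between genotypes. With limma and Benjamini-Hochberg adjustment over all 23410 probe sets with a symbol, 0 of the 28 members had an adjusted p under 0.05, where 1.14% of all genes did, 0.652% of them higher and 0.487% lower. By probe set it was 0 of 37, against 1.09% of all those tested. At an unadjusted p under 0.05, 5 members were higher in Ppif-/- hearts and 0 lower, that is 17.9% higher against 5.93% of all genes, with 7.14% of all genes lower and 13.1% in either direction. The 5 were Ppwd1, Ppil1, Ppib, Ppic and Fkbp8, and their smallest adjusted p was 0.0544. On the brightest probe set of each gene, every Ppif-/- heart lay above every WT heart for 6 members, these 5 and Fkbp7. They were 21.4% of members, against 8.82% of all genes. In the other direction 0 members were without overlap, against 11.1% of all genes.

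The members as a whole lay slightly above 0. Their median difference was 0.05, with a median of -0.01 over all genes, and 19 of 28 differences were above 0 (67.9%, against 48.2% of all genes). Without WT heart 2 the median was 0.01, 15 of 28 differences were above 0, and the median of all genes was -0.01. In that fit 3 members had an unadjusted p under 0.05, all higher (Ppib, Ppil1 and Ppwd1). They were 10.7% of members, where 5.31% of all genes were higher at that p and 11.7% differed in either direction. The count of 3 was also reached without Ppif-/- heart 1 or Ppif-/- heart 3. The median of the members was likewise 0.01 without Ppif-/- heart 1, and it was 0.09 without Ppif-/- heart 3. Measured heart by heart, the median over members of the value minus the WT mean was 0.14, 0.04 and -0.005 in Ppif-/- hearts 1, 2 and 3 and 0.02, -0.05 and 0.02 in WT hearts 1, 2 and 3, so that the groups overlapped.

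For most members the data set narrow limits on any change in the array value. The 95% interval of the difference lay inside a 1.5-fold change in either direction for 24 of 28 genes and inside a 2-fold change for 27. Ppwd1, Ppil1, Ppil6 and Fkbp5 were the 4 whose intervals reached past 1.5-fold, and Fkbp5 alone reached past 2-fold. Fkbp1b and Fkbp11 read below the median of all probe sets, and RMA compresses differences at low signal. For these genes, and for Ppia with its near-identical copies, a narrow interval does not limit a change in the transcript. The absolute difference was under 0.2 for 23 members. Its median over members was 0.10, and 0.09 over all genes. Spread between hearts of a genotype was likewise ordinary, with a median pooled SD of 0.09 for members and 0.11 for all genes.

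**Figure D2:**
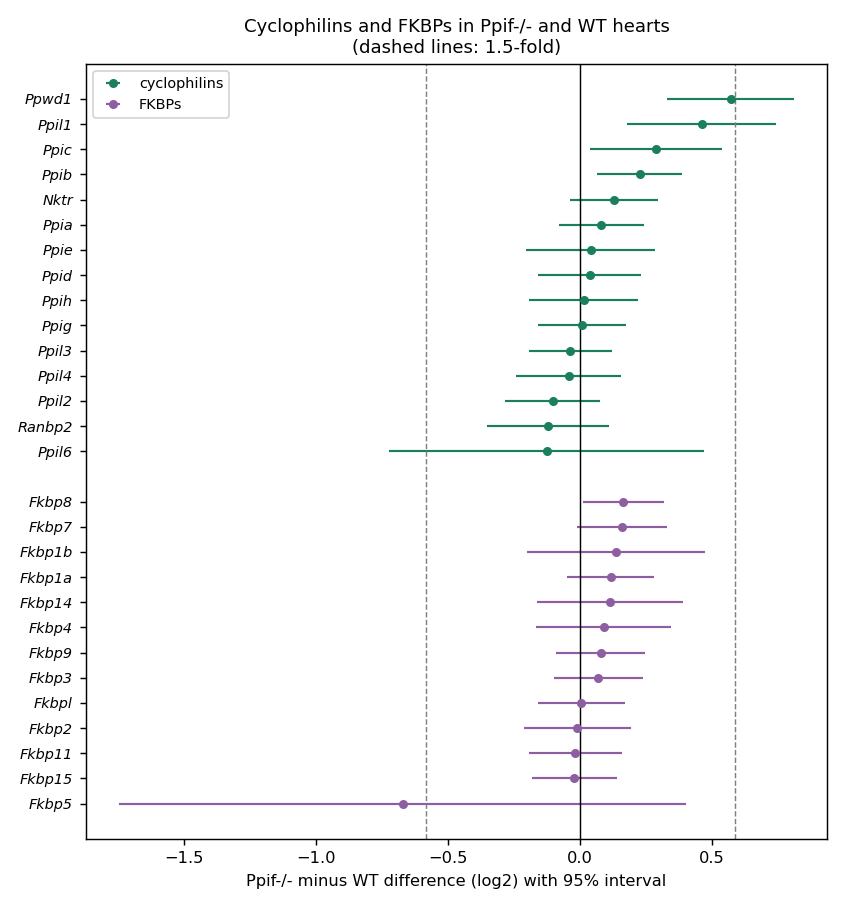
Points give the Ppif-/- minus WT difference of each member in log2 units and bars its 95% interval from limma, with cyclophilins above and FKBPs below. Intervals of Ppwd1, Ppil1, Ppib, Ppic and Fkbp8 lie to the right of 0, and that of Fkbp5 runs from -1.75 to 0.40.

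The cyclophilins of the nucleus and the spliceosome, the machine that removes introns, held the 2 largest positive differences. Ppwd1 is a cyclophilin with WD40 repeats that has been found in human spliceosomes. It read 7.99, 7.87 and 7.74 in Ppif-/- hearts 1, 2 and 3, against 7.46, 7.14 and 7.30 in WT hearts 1, 2 and 3. The lowest Ppif-/- heart stood above the highest WT heart. The difference was 0.57 ± 0.10 (SE), a 1.48-fold higher level with a 95% interval of 1.26 to 1.75, and the adjusted p of 0.0544 lay just outside the threshold. Ppwd1 passed when only the brighter probe sets were tested (adjusted p = 0.0316), with 1 probe set per gene (0.0481), with arrays centred on their medians (0.0480), with array weights (0.0358) and with a variance trend (0.0293). It did not pass when any 1 heart was left out, with adjusted p from 0.0672 to 0.166 and a difference of 0.49 without WT heart 2.

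Ppil1 is a small cyclophilin that binds the splicing factor Snw1. Its values were 8.73, 8.95 and 8.78 in Ppif-/- hearts and 8.42, 8.10 and 8.55 in WT hearts 1, 2 and 3. All Ppif-/- hearts were above all WT hearts, and WT heart 2 was the lowest of the 6. The difference of 0.46 ± 0.12 (1.38-fold, interval 1.13 to 1.67) had an adjusted p of 0.155 in limma. It was 0.33 ± 0.09 without WT heart 2 (adjusted p = 0.244).

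The other 8 genes of this group showed differences between -0.12 and 0.13. Nktr, a large cyclophilin with a serine- and arginine-rich tail, stood at 0.13 and Ppig, which is built in a similar way, at 0.01. Ppie and Ppil4, which carry an RNA recognition motif, were at 0.04 and -0.04. Ppil2 and Ppil3 differed by -0.10 and -0.04, and Ranbp2, a nucleoporin that ends in a cyclophilin domain, by -0.12. Ppih, a component of the U4/U6 particle, was read by 4 probe sets whose differences ran from -0.01 to 0.02. The median over the 10 genes was 0.01 (-0.01 without WT heart 2), and 0 passed the adjusted threshold. With an unadjusted p under 0.05 there were 2 higher and 0 lower (20% higher, against 5.93% of all genes). Ppil6, outside this group, was dim in most hearts, at 5.07, 4.87 and 4.86 in Ppif-/- and 4.81, 5.74 and 4.63 in WT hearts, and WT heart 2 was the highest. Its difference was -0.13 with all hearts and 0.21 without WT heart 2, and neither passed (adjusted p = 0.893 and 0.487).

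Isomerases of the endoplasmic reticulum and secretory pathway had a median difference of 0.11 over 7 genes, and 0 passed the adjusted threshold. Of the 7, 2 were higher and 0 lower at an unadjusted p under 0.05 (28.6% higher, against 5.93% of all genes). Without WT heart 2 the median was 0.03, and it was 0.04 for the 4 cytosolic genes, whose median over all hearts was 0.10. Ppib, cyclophilin B, works with P3h1 and Crtap on newly made procollagen. It read 9.93, 9.97 and 9.88 in Ppif-/- hearts and 9.72, 9.62 and 9.76 in WT hearts 1, 2 and 3. The groups were apart with little spread inside either, and the difference was 0.22 ± 0.07 (1.17-fold, interval 1.04 to 1.31, adjusted p = 0.222). Without WT heart 2 it was 0.18 ± 0.07. Ppic, cyclophilin C, gave 9.31, 9.06 and 9.13 in Ppif-/- hearts and 8.88, 8.71 and 9.06 in WT hearts. Ppif-/- heart 2 and WT heart 3 nearly met. The difference of 0.29 ± 0.11 (1.22-fold, interval 1.03 to 1.45) had an adjusted p of 0.314, and its unadjusted p went from 0.0291 to 0.0924 without WT heart 2.

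Among the FKBPs of this compartment, Fkbp7 differed by 0.16 ± 0.07, with values of 9.01, 8.93 and 8.94 in Ppif-/- and 8.87, 8.69 and 8.84 in WT hearts (adjusted p = 0.425). Its groups did not overlap. Fkbp14, in which human mutations cause a form of Ehlers-Danlos syndrome, was at 0.11 and Fkbp9 at 0.08. Fkbp2 and Fkbp11 were at -0.01 and -0.02. Without WT heart 2 the differences were -0.02 for Fkbp14, 0.03 for Fkbp9, -0.09 for Fkbp2 and -0.01 for Fkbp11. WT heart 2 was the lowest of the 6 for Ppib, Ppic, Fkbp7, Fkbp9, Fkbp14 and Fkbp2. The mean over the 7 genes was 8.69 to 8.78 in Ppif-/- hearts, 8.66 and 8.70 in WT hearts 1 and 3, and 8.49 in WT heart 2. Fibroblasts, which make much of the heart's collagen, may contribute to such transcripts, and in whole hearts fewer cells of a type and less RNA per cell cannot be told apart. Of 10 fibroblast markers, 0 were higher and 1 was lower past the threshold (Pdgfra, -0.44). Over all genes, 0.652% were higher and 0.487% lower. The fibroblast list had a median difference of 0.002, with 5 of 10 differences above 0. Its mean was 9.67 to 9.88 in Ppif-/- hearts and 9.52 to 9.80 in WT hearts. WT heart 2 had the lowest fibroblast mean as well. The part of fibroblasts in the values of these isomerases was not tested.

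**Figure D3:**
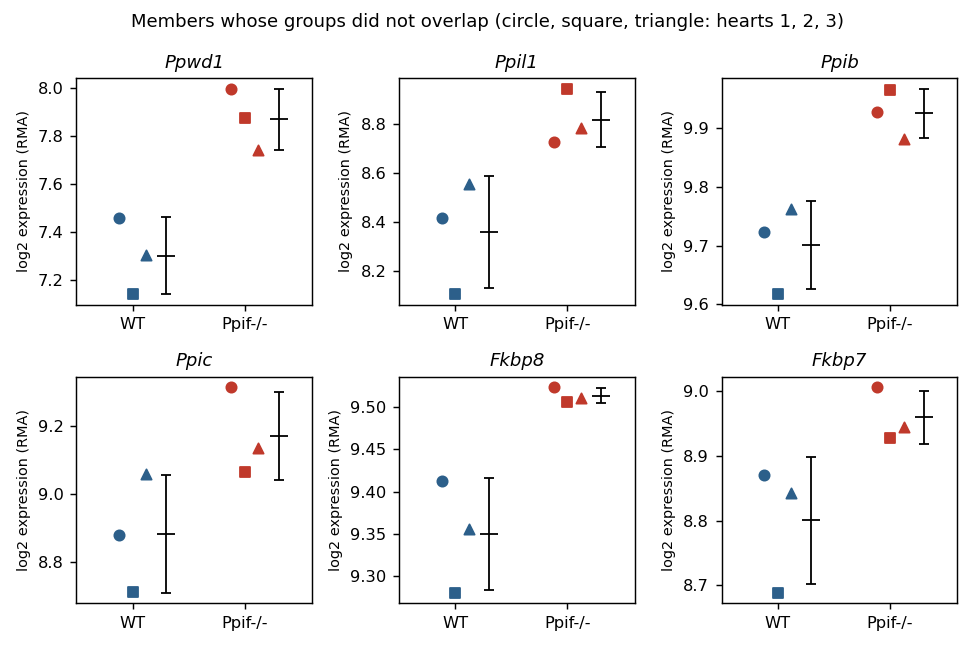
Log2 expression of the 6 members whose genotypes did not overlap, with WT hearts in blue and Ppif-/- hearts in red and hearts 1, 2 and 3 as circle, square and triangle; black marks show the mean and SD of 3 hearts, and each panel has its own axis that does not start at 0. WT heart 2 is the lowest point in all 6 panels.

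Fkbp3, a nuclear FKBP, and Fkbp15, which acts in endosome transport, were at 0.07 and -0.02.

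The cytosolic members showed small differences. Ppia, cyclophilin A, is the main cytosolic target of cyclosporin A. On its brightest probe set it read 12.07, 11.95 and 11.91 in Ppif-/- hearts and 11.88, 11.88 and 11.92 in WT hearts. Ppif-/- heart 1 was the highest and the other hearts overlapped, with a difference of 0.08 ± 0.07 (interval 0.946 to 1.18-fold, adjusted p = 0.688). The 7 probe sets named for Ppia gave differences from 0.02 to 0.09. On some of these, with differences of 0.09, every Ppif-/- heart lay above every WT heart, so overlap depended on the probe set. Ppia has near-identical copies, 60 pseudogenes by that name in the gene table, so the Ppia values are uncertain as to which copy they read. Ppid gave 9.69, 9.60 and 9.46 in Ppif-/- hearts and 9.51, 9.50 and 9.64 in WT hearts, and the groups overlapped (0.04 ± 0.08, interval 0.895 to 1.17-fold, adjusted p = 0.911).

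The FKBPs that bind the ryanodine receptor did not pass either. Fkbp1a, which also binds the type I TGF beta receptor, read 9.42, 9.43 and 9.28 in Ppif-/- hearts and 9.32, 9.23 and 9.24 in WT hearts. Overlap was slight, and the difference was 0.12 ± 0.07 (interval 0.965 to 1.22-fold, adjusted p = 0.554). Fkbp1b, the form that prefers the cardiac receptor Ryr2, was dim on its probe set, at 5.07, 4.73 and 4.96 in Ppif-/- hearts and 4.93, 4.47 and 4.94 in WT hearts. Both genotypes spanned much the same values, and the difference of 0.14 ± 0.15 became -0.02 ± 0.11 without WT heart 2 (adjusted p = 0.762 and 0.975). RMA compresses differences at such low signal. Of the 15 genes listed with the ryanodine receptor and calcineurin, the phosphatase that FKBP and cyclophilin drug complexes inhibit, 0 passed in limma. Counted at an unadjusted p under 0.05, 1 was higher and 3 lower (26.7% in either direction, against 13.1% of all genes). Ppp3cc, a catalytic subunit of calcineurin, was at -0.29 ± 0.07 (adjusted p = 0.130), and Casq2, the calcium buffer of the sarcoplasmic reticulum, at 0.39 ± 0.12 (adjusted p = 0.226).

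Fkbp8 is the member nearest to cyclophilin D in place, an FKBP of the outer mitochondrial membrane that binds Bcl2 and takes part in mitophagy. Its values were 9.52, 9.51 and 9.51 in Ppif-/- hearts, the least spread of any of the 6 members without overlap, and 9.41, 9.28 and 9.36 in WT hearts. The difference was 0.16 ± 0.07 (1.12-fold, interval 1.01 to 1.25, adjusted p = 0.353). Without WT heart 2 it was 0.13 ± 0.07, with an unadjusted p of 0.0985.

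Fkbp4 is an Hsp90 cochaperone that helps carry steroid receptors to the nucleus. It read 11.12, 11.24 and 11.27 in Ppif-/- hearts and 11.23, 10.87 and 11.25 in WT hearts. Only WT heart 2 was away from the others, and the difference of 0.09 ± 0.11 became -0.03 without it (adjusted p = 0.802 and 0.929). Fkbpl differed by 0.00. Of 17 measured partners of this group, chaperones and steroid receptors, 1 was higher and 0 lower past the threshold. Over all genes, 0.652% were higher and 0.487% lower. The partner that passed was Dnajb1, an Hsp40 that feeds clients to Hsp70. It read 9.75, 9.04 and 8.80 in Ppif-/- and 7.22, 7.35 and 7.23 in WT hearts (1.93 ± 0.22, 3.81-fold, adjusted p = 0.00669). Dnaja1, another Hsp40, was at 0.51 ± 0.15 (adjusted p = 0.208), and the list median was 0.01. In this list 3 were higher and 0 lower at an unadjusted p under 0.05 (17.6% higher, against 5.93% of all genes).

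Fkbp5 had the widest spread of the members, above 99.9% of all probe sets tested by pooled SD. It raises the threshold for hormone binding of the glucocorticoid receptor and is itself a well-known target of that receptor. The Ppif-/- hearts read 8.14, 7.68 and 8.47 and the WT hearts 8.29, 9.96 and 8.05. WT heart 2 lay 3.46-fold above the mean of the other WT hearts, a gap larger than for all but 4 of 19938 genes, and the other 5 hearts overlapped. The difference of -0.67 ± 0.46 between genotypes (adjusted p = 0.600) was -0.08 ± 0.22 without WT heart 2 (adjusted p = 0.944, interval -0.60 to 0.45).

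Some other genes that glucocorticoids are known to induce were also high in that heart. Of 18 measured genes of this kind, 13 were highest in WT heart 2 among the WT hearts (72.2%, against 37.0% of all genes), and 6 exceeded the mean of WT hearts 1 and 3 by at least 0.5, as did 1.51% of all genes. WT heart 2 was the highest of all 6 hearts for 6 of the 18. The list was chosen with earlier results of these data known, and the genes named here were picked after their values were seen. What set WT heart 2 apart was not tested. Mt2, a metallothionein, read 11.26 in WT heart 2, 8.75 and 8.93 in the other WT hearts and 8.19 to 9.08 in Ppif-/- hearts. Lcn2, an iron-binding lipocalin, was at 8.58 there, at 6.90 and 6.78 in the other WT hearts and at 6.14 to 6.39 in Ppif-/- hearts. Mt1 was 1.83-fold and Pdk4, which inactivates pyruvate dehydrogenase, also 1.83-fold above the mean of WT hearts 1 and 3. The gap was small for the anti-inflammatory Tsc22d3, 1.16-fold, and for Per1, 1.10-fold. For 4 genes WT heart 2 was below that mean, by 1.69-fold for Angptl4, a lipase inhibitor, and by 1.09-fold, 1.08-fold and 1.05-fold for Dusp1, Hif3a and Klf15.

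Between genotypes the same list gave 3 higher and 0 lower past the threshold, where 0.652% of all genes were higher and 0.487% lower. At an unadjusted p under 0.05, 7 of the 18 were higher and 3 lower (55.6% in either direction, against 13.1% of all genes). The list median was 0.03. Errfi1, a feedback inhibitor of the EGF receptor, was 2.68-fold higher in Ppif-/- hearts (1.42 ± 0.13, adjusted p = 0.00321). The phosphatase gene Dusp1 and the clock gene Per1 were higher by 0.95 ± 0.10 (adjusted p = 0.00421) and 1.07 ± 0.14 (adjusted p = 0.0122), and other signals also induce both. WT heart 2 differed from the mean of the other WT hearts by 0.14 for Errfi1, 0.14 for Per1 and -0.12 for Dusp1. For Pdk4 every Ppif-/- heart lay below every WT heart, with the highest Ppif-/- heart at 11.565 and the lowest WT heart at 12.187. Its difference of -1.20 ± 0.24, the lowest of the list, did not pass in limma (adjusted p = 0.0709).

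**Figure D4:**
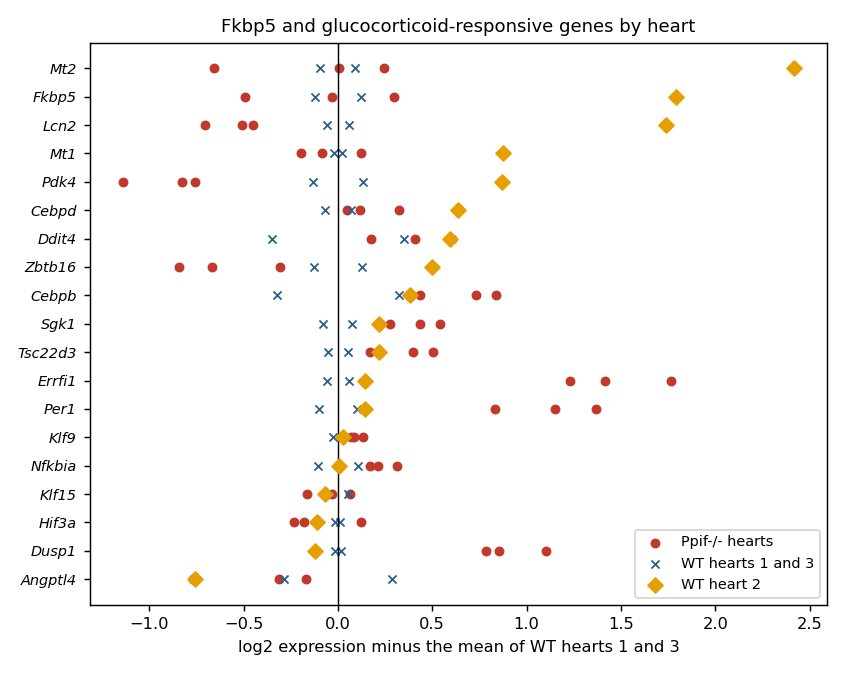
Log2 expression of Fkbp5 and 18 glucocorticoid-responsive genes in each heart, minus the mean of WT hearts 1 and 3. WT heart 2 (diamonds) is far to the right for Mt2, Fkbp5 and Lcn2. Errfi1, Per1 and Dusp1 are among 7 of the 18 with all Ppif-/- hearts (circles) above all WT hearts (8.82% of all genes). For 3 of the 18 all Ppif-/- hearts lie below all WT hearts (11.1% of all genes).

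Partners of the splicing and folding members were examined from further lists. Of 28 spliceosome and splicing genes, 0 passed in limma, and the median was -0.05. Those with an unadjusted p under 0.05 were 3 higher and 2 lower (17.9% in either direction, against 13.1% of all genes). The splicing factors Srsf3 and Srsf2 had the smallest p, at 0.34 ± 0.06 (adjusted p = 0.0548) and 0.36 ± 0.08 (adjusted p = 0.114). Srsf3 read 11.56, 11.56 and 11.54 in Ppif-/- hearts and 11.20, 11.18 and 11.26 in WT hearts, with the groups well apart. Of 15 genes that act with Ppib and Fkbp10 on collagen, 0 passed. Only the ER potassium channel Tmem38b (-0.36 ± 0.13) had an unadjusted p under 0.05, 6.67% of the list against 13.1% of all genes. Crtap stood at 0.21 ± 0.10. Of 20 ER chaperones and genes of the unfolded protein response, 0 passed, 3 had a difference above 0, and the list median was -0.14. On the lower side 6 had an unadjusted p under 0.05, and on the higher side 0. The 6 were 30% of the list, where 7.14% of all genes were lower at that p. In this list the smallest p belonged to Dnajc3 (-0.47 ± 0.09, adjusted p = 0.0657) and Creld2 (-0.32 ± 0.09, adjusted p = 0.188). The 3 measured isomerases and relatives outside the rule, Aipl1, Cwc27 and Ptpa, differed by 0.00 to 0.05.

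Positions along the chromosomes were compared because Sv129 blocks may remain in the knockout line. None of the 28 members is on chromosome 14, where Ppif lies. Among the 10 measured genes on each side of Ppwd1, Ppil1, Ppib and Ppic, 0 of 20 passed in limma in each case. Of each 20, 1, 4, 0 and 0 had an unadjusted p under 0.05, as did 13.1% of all genes. Srsf3 is 1 of the neighbours of Ppil1 on chromosome 17, with 2 measured genes between them. Near Fkbp8 on chromosome 8, 3 of 20 had an unadjusted p under 0.05. Of the 20, 1 passed the adjusted threshold, where 1.14% of all genes did. This was Lsm4, which encodes a ring protein of the U6 particle. It read 9.83, 9.66 and 9.80 in Ppif-/- and 8.94, 8.80 and 9.03 in WT hearts (0.84 ± 0.09, adjusted p = 0.00435), with 4 measured genes between it and Fkbp8. Whether strain sequence accounts for any of these values was not tested.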

How the data were processed

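Each of 6 hearts was measured on 1 array. Log2 expression of each probe set was deposited, computed by the authors with RMA per the submitters' processing notes; no software version or build was stated. They were used as deposited, with none missing, and 0 columns lacked a sample.

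Of 35557 probe sets, the 23410 with a gene symbol in the platform annotation were tested, their symbols brought up to date through Entrez identifiers in a GRCm38.p6 gene table (21698 of 21789 probe sets with 1 symbol matched). The test was limma's moderated one (version 3.58.1, R 4.3.3; lmFit, eBayes, 2-sided, no covariates, Benjamini-Hochberg adjustment, threshold 0.05). The procedure was tested on simulated arrays with values drawn independently for each probe set. That test does not cover a shift shared by many genes in 1 heart. For each gene the brightest probe set over all arrays was taken, except where all probe sets are given. Errors are the SE of the fit, and n = 3 hearts per genotype. An exact permutation test of 3 against 3 cannot go below 0.1, so none is given.

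The members and lists were chosen with earlier results of these data known. Every member could be named; values in every heart were planned for members with an unadjusted p under 0.05 and for Ppia, Ppid, Fkbp1a, Fkbp1b, Fkbp4, Fkbp5 and Fkbp8, and those of Fkbp7 and Ppil6 were added after they were seen, as was the choice of promoters and motifs. Of the related lists, up to 4 genes past the threshold, or the 2 with the smallest p, were named. Of 80 cell type markers measured, 4 passed (Tcap and Cd68 higher, Pdgfra and Tagln lower), where 1.14% of all genes did. Alternatives are given in the closing section.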

Additional observations from a re-analysis of the deposited data

How the results depend on the processing

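Across 16 alternatives the count of members past the threshold was 0 or 1. It was 1, always Ppwd1, on the brighter probe sets, with 1 probe set per gene, with arrays centred on their medians, under array weights and with a variance trend. Over all tested probe sets the count moved from 254 to 160 with the replicate number as a block, 403 on the brighter probe sets, 131 when all probe sets were tested, 453 with a variance trend, 386 with array weights and 131 to 171 when 1 heart was left out. Without 1 heart the members higher at an unadjusted p under 0.05 numbered 3 to 4, and 0 were lower. The list median stayed above 0, at 0.013 to 0.093. Of the 115 related genes, 4 passed in the main fit, where 1.14% of all genes did. The count was 7 on the brighter probe sets, 9 with a variance trend and 3 to 5 without 1 heart. Among the 100 neighbours 1 passed, against the same 1.14% of all genes. That count was 2 on the brighter probe sets, under array weights and with a variance trend. Without WT heart 2 the sign of the difference turned for 8 of the 28 members (Fkbp14, Fkbp15, Fkbp1b, Fkbp4, Fkbpl, Ppie, Ppih and Ppil6), none with a call. Of the members given in every heart by rule, signs turned for Fkbp1b with array weights (-0.0014) and without WT heart 2 (-0.017), for Fkbp4 without WT heart 2 (-0.031) and for Ppid without Ppif-/- heart 1 (-0.019); without a heart they ranged from -0.017 to 0.23, -0.031 to 0.16 and -0.019 to 0.097. Each of these causes was not tested. Hearts share only a number in the labels: deviations of same-numbered hearts correlated at -0.08, -0.06 and 0.12, and the block changed no member's adjusted call (Ppwd1 adjusted p = 0.0675). Under the block, and with arrays centred, 4 members had an unadjusted p under 0.05, without Fkbp8.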
